A study of Mus musculus with 10 samples.

Results

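Chemokine receptors were read out in regulatory T (Treg) cells of mice in which the Foxp3 protein can be degraded on demand. The genes are the 9 rows named Ccr7, Ccr2, Ccr6, Ccr8, Ccr9, Cxcr3, Cxcr4, Cxcr5 and Cxcr6 among the 55809 gene rows of each count file, and all 9 passed the filter on low counts, as did 16363 genes in all. Treg cells labelled as taken from spleen and lymph nodes were sequenced from 10 mice, 4 of genotype Foxp3-AID ROSA26-WT (R26-WT, replicates 1 to 4) and 6 of genotype Foxp3-AID ROSA26-TIR1(F74G) (R26-TIR1, replicates 5 to 10). All 10 carried the Foxp3-AID allele, in which Foxp3 is fused to an auxin-inducible degron, and all 10 were treated with 5-ph-IAA for 14 days, so that the ligand and the degron tag were common to both groups and the degradation machinery was not. TIR1(F74G) is a plant F-box protein, altered to accept 5-ph-IAA, that brings a degron-tagged protein to the proteasome. In the study's mice the TIR1 transgene at ROSA26 sits behind a stop cassette that is removed by a Cre made from the Foxp3 locus itself, so that only cells that have expressed Foxp3 carry the active machinery. The R26-WT controls thus lack the transgene and its fluorescent reporter, and a difference between the groups cannot be told apart from one due to the transgene. The genotype as given does not say whether a Foxp3 allele without the degron was also present. A figure legend of the study gives 14 days of degradation for newborn and adult Foxp3-AID/y mice. In hemizygous males the study reports a mild rise in inflammation after degradation, and its part in the receptor values was not tested.

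Chemokine receptors are G protein-coupled receptors that read gradients of small secreted proteins and steer cells towards their source. CCR7 brings naive and resting T cells into lymph nodes along CCL19 and CCL21, CXCR5 brings cells to B cell follicles along CXCL13, and CXCR4 holds cells near CXCL12, as in bone marrow. A further set marks cells that have been activated and can enter tissues. CXCR3 follows the interferon-induced CXCL9 and CXCL10, CCR2 follows CCL2 to inflamed sites, CXCR6 binds CXCL16, CCR6 binds CCL20 and CCR9 binds CCL25 of the small intestine. CCR8 binds CCL1 and is carried by many activated Treg cells in tissues. Treg cells use the same receptors as the effector cells that they restrain, and resting Treg cells circulate through lymphoid organs with CCR7.

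Promoter sequence is shown for Ccr2 and Cxcr6, the members with the largest differences between the groups, which also sit on the same stretch of chromosome 9. RefSeq's table of the GRCm38.p6 build held a promoter for 7 of the 9 members, with none for Ccr7 and Cxcr5. The 250 bases before the RefSeq start are given on the plus strand, from chr9:124101933-124102182 for Ccr2 and chr9:123806227-123806476 for Cxcr6, and capitals mark matches to the motifs listed after them.
Ccr2: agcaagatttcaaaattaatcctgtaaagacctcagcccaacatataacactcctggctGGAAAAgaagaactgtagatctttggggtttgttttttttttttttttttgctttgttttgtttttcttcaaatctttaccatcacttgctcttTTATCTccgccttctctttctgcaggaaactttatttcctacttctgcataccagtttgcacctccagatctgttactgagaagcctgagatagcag
Cxcr6: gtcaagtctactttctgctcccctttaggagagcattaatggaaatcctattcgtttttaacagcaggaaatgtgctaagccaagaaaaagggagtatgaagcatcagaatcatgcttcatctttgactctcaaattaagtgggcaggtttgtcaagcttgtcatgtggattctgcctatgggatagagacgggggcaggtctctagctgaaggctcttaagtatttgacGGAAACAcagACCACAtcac
Both strands were searched for the forkhead core TGTTTAC and its looser form TGTTTNC, which contains the core, and for the RUNX motif TGTGGT, the T-box motif AGGTGTG, the GATA motif AGATAA, the KLF motif CCACCC and the NFAT motif GGAAAA. The Ccr2 window held 1 NFAT match, which begins 191 bases before the start and is found in 20.4% of all 32851 promoter windows of this length, and 1 GATA match at 97 bases, found in 9.99% of windows. In the Cxcr6 window lay 1 loose forkhead match at 20 bases (17.8% of windows) and 1 RUNX match at 10 bases (14.0% of windows). None of the 7 members held the strict forkhead core or the T-box motif, which 3.17% and 5.10% of all windows hold. A match is a description of letters and not a bound site.

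Library totals ranged from 24158699 to 54795718 counts assigned to genes, with a mean of 51171204 ± 4394248 (SD, n = 4) in R26-WT and 40328847 ± 8971751 (SD, n = 6) in R26-TIR1. Foxp3 transcript, which the degron does not target, was present at 6816 to 11779 normalized counts in R26-WT and 6778 to 16059 in R26-TIR1, so it does not check the labels. The 9 markers of Treg and T cells were all detected, and their mean level was 8.81 to 8.87 log2 CPM in R26-WT and 8.65 to 8.72 in R26-TIR1, ranges that did not meet. Some markers of other cells were near 0, with at most 4 counts of Ms4a1 and 4 of Adgre1 and none of Cd14, Itgax or Ncr1 in any library, and others were not. Of the B cell genes, Cd79b had 370 to 1341 counts, Cd79a 130 to 333 and Cd22 6 to 252. The myeloid gene Cd68 had 41 to 116 counts. Of the CD8 T and NK cell genes, Cd8b1 had 756 to 2226 counts, Prf1 307 to 830 and Nkg7 230 to 881, while Cd8a had 0 to 41. The summed level of the B cell list was 19.6 to 32.4 CPM in R26-WT and 17.7 to 34.0 CPM in R26-TIR1, and that of the myeloid list 1.71 to 2.87 and 1.97 to 3.45 CPM. The summed level of the 8 CD8 and NK cell markers was 55.6 to 73.7 CPM in R26-WT and 44.2 to 68.1 CPM in R26-TIR1.

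Ccr7 made up most of the receptor transcript in every library. Levels between genes are compared here as normalized counts, that is counts divided by the DESeq2 size factor of the library, per kilobase of annotated exon. On that scale the mean over 10 libraries was 28667 for Ccr7, 741 for Ccr8, 365 for Cxcr4, 276 for Cxcr3, 204 for Cxcr5, 97.1 for Cxcr6, 87.2 for Ccr9, 67.8 for Ccr6 and 47.3 for Ccr2. Ccr7 supplied 93.5% ± 1.86 (SD, n = 4) of the summed level of the 9 in R26-WT and 93.9% ± 1.41 (SD, n = 6) in R26-TIR1. Its range, 24787 to 32887, did not meet that of Ccr8, 554 to 898. Every later pair of neighbours in the order overlapped. Ccr8 stood above Cxcr4 in 9 of 10 libraries, but Cxcr4 above Cxcr3 in only 6, Cxcr3 above Cxcr5 in 7, and Cxcr6 above Ccr9 in only 2. The annotated exons of Ccr9 (10260 bases) and Ccr2 (6760 bases) are long against those of Ccr8 (1175 bases), which lowers their level on this scale.

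**Figure D1:**
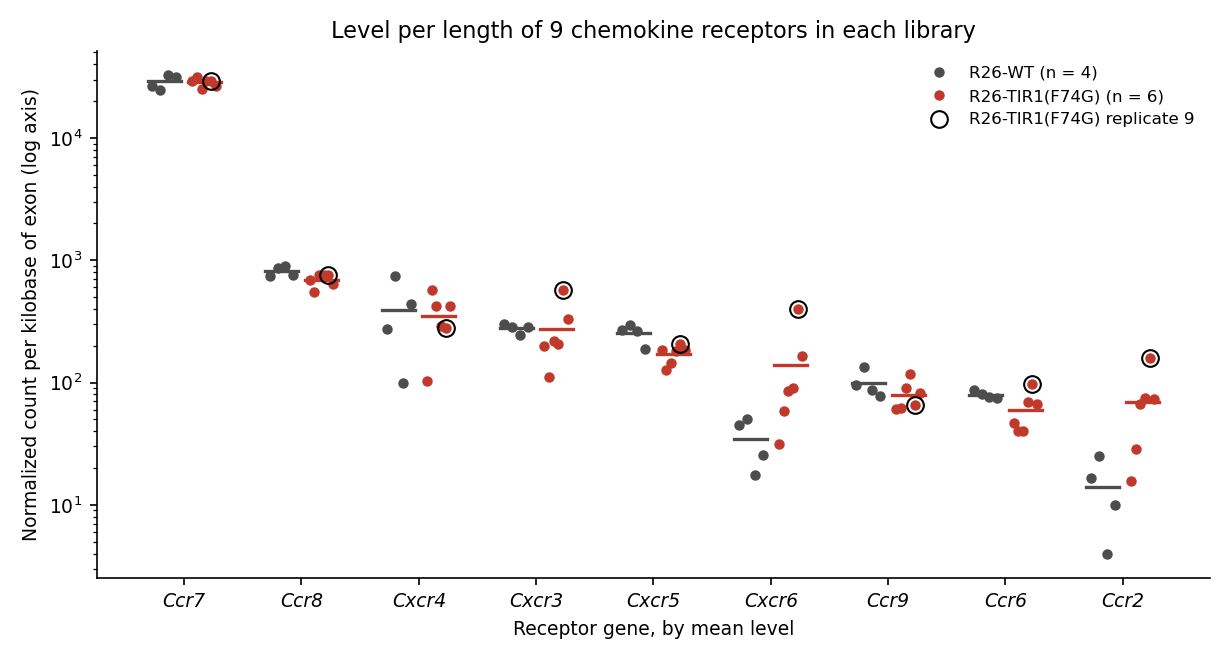
Normalized counts per kilobase of exon (log axis) for the 9 receptor genes, with 1 point per library, a bar at the mean of each group and R26-TIR1 replicate 9 ringed. Ccr7 sits between 24787 and 32887 in every library, and Ccr2 and Cxcr6 spread over the widest range.

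The summed level of the 9 did not separate the groups, with 30978 ± 3582 (SD, n = 4) normalized counts per kilobase in R26-WT and 30270 ± 2061 (SD, n = 6) in R26-TIR1. Without Ccr7 the remaining 8 summed to 1967 ± 354 and 1832 ± 415. The shares of these 8 are given as descriptions, with no test. Ccr2 took 0.67% ± 0.353 in R26-WT and 3.48% ± 1.79 in R26-TIR1, and Cxcr6 took 1.73% ± 0.646 and 6.67% ± 4.89. Ccr8 was the largest with 42.3% ± 7.68 and 38.9% ± 7.90. Cxcr5 took 13.1% ± 2.54 in R26-WT and 9.62% ± 2.31 in R26-TIR1. Ccr6 took 4.13% ± 0.682 and 3.23% ± 0.69, and Ccr9 4.97% ± 0.558 and 4.49% ± 1.32. In replicate 9 of R26-TIR1 Cxcr6 reached 15.8% and Cxcr3 22.6%.

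**Figure D2:**
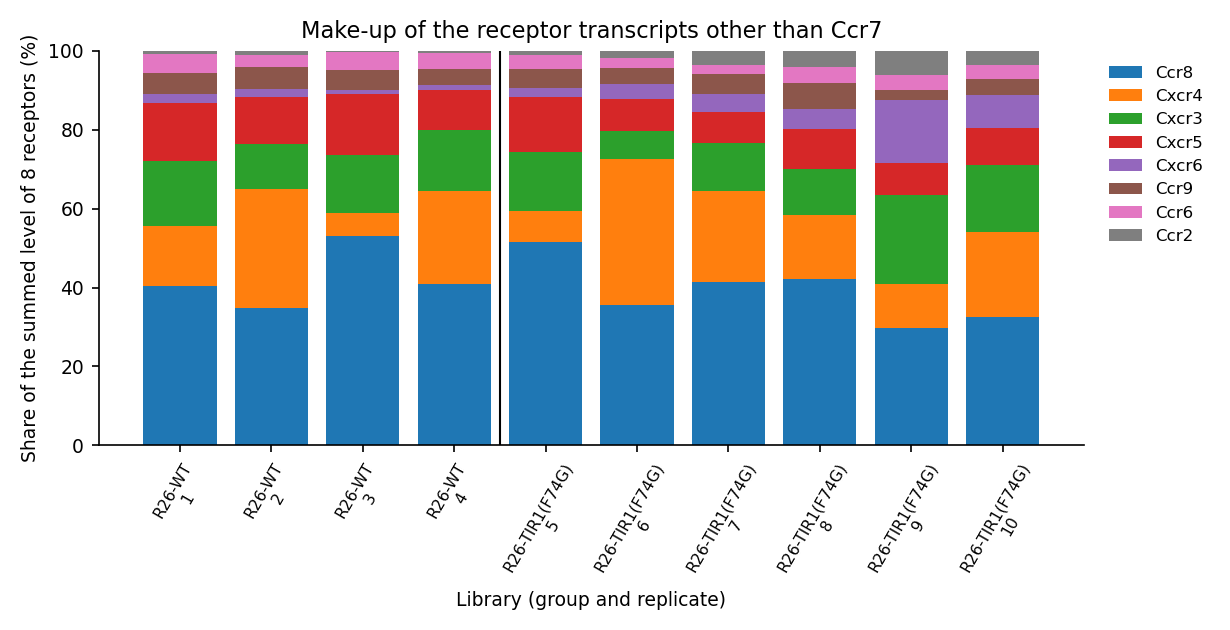
Stacked shares (%) of 8 receptor genes in their summed normalized count per kilobase, Ccr7 left out, for each library, with R26-WT left of the line and R26-TIR1 right of it. Ccr8 is the largest share in most bars, and the shares of Cxcr6 and Ccr2 reach 15.8% and 6.20% in R26-TIR1 replicate 9.

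Of the 9 receptors, 1 rose in R26-TIR1 and none fell (DESeq2, Benjamini-Hochberg adjusted p under 0.05 over all 16363 genes). Among all tested genes 1.40% were called higher and 0.336% lower, or 1.74% in either direction. The single call was Ccr2. With edgeR's quasi-likelihood test 0 of 9 were called, against 0.367% of all genes, and limma voom also called 0. At an unadjusted p under 0.05 the DESeq2 fit had 3 of the 9 (Ccr2, Cxcr5 and Cxcr6), against 6.86% of all genes. No member had groups that did not overlap, against 2.37% of all genes. The median log2 fold change over the 9 was −0.16, and over all tested genes it was 0.00063. In these bulk samples, fewer cells carrying a receptor and less receptor RNA per cell cannot be told apart.

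**Figure D3:**
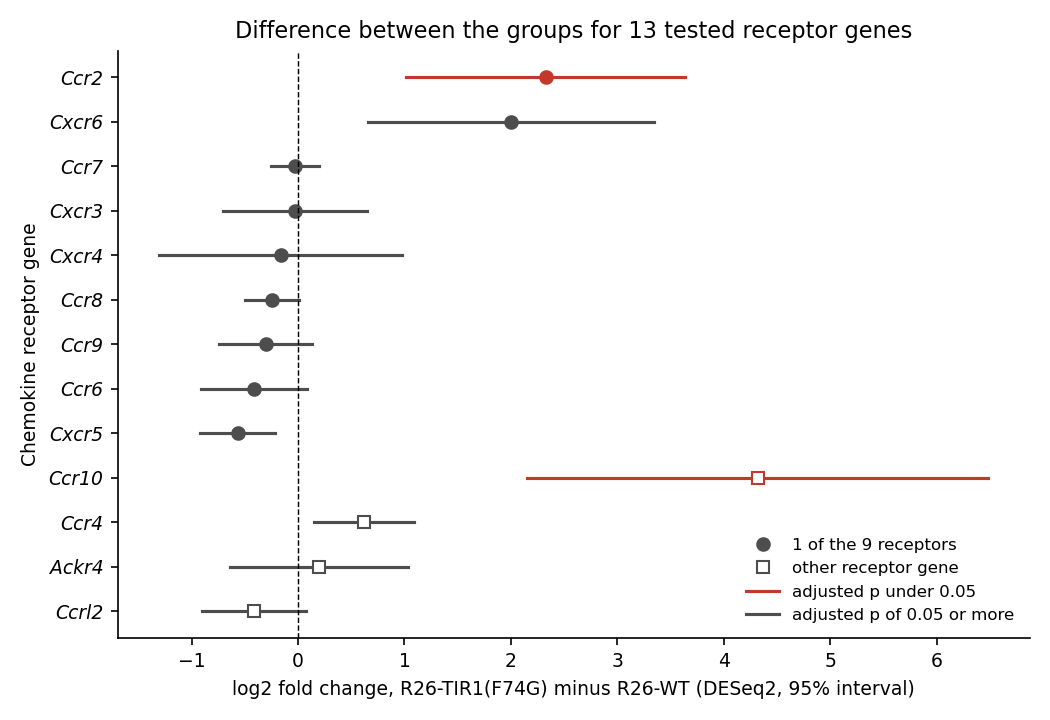
DESeq2 log2 fold changes of 13 tested receptor genes (R26-TIR1 minus R26-WT) with 95% intervals; filled circles are the 9 receptors, open squares 4 other receptor genes, and red marks an adjusted p under 0.05. Ccr2 at 2.33 and Ccr10 at 4.32 are the red points.

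Ccr2, on the plus strand of chromosome 9 (GRCm39 chr9:123901987-123913594), encodes the receptor for CCL2 that brings monocytes and activated T cells to inflamed tissue. Its normalized counts in R26-WT replicates 1 to 4 were 112, 168, 26.9 and 67.7. Across the 6 R26-TIR1 libraries they ran from 106 in replicate 5 through a median of 474 to 1066 in replicate 9. The other 5 R26-TIR1 libraries stood above every R26-WT library, and replicate 5 lay inside the R26-WT range. Group means were 93.8 ± 60.7 (SD, n = 4) and 470 ± 336 (SD, n = 6), and Ccr2 rose by a log2 fold change of 2.33 (SE 0.67, 95% interval 1.02 to 3.64, DESeq2 adjusted p = 0.0346). The edgeR adjusted p was 0.217 and that of limma voom 0.429. The DESeq2 call was lost in 7 of 10 fits that left out 1 library each, namely those without R26-WT replicate 1, 3 or 4 or R26-TIR1 replicate 7, 8, 9 or 10, with adjusted p over the 10 fits from 0.00346 to 0.222. The direction held in all 10, from 1.91 without R26-TIR1 replicate 9 to 2.77 without R26-WT replicate 2.

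Cxcr6 (GRCm39 chr9:123635540-123640825, plus strand), the receptor for the membrane-bound chemokine CXCL16, lies upstream in the same cluster. R26-WT replicates 1 to 4 had 87.6, 97.4, 34.2 and 49.0 normalized counts. In R26-TIR1 the lowest value was 60.3 in replicate 5, the median 170 and the highest 777 in replicate 9. As for Ccr2, 5 of 6 R26-TIR1 libraries exceeded all R26-WT libraries and replicate 5 did not. The log2 fold change was 2.00 (SE 0.69, 95% interval 0.65 to 3.34), with a DESeq2 adjusted p of 0.139 that missed the threshold and an edgeR adjusted p of 0.362. Without replicate 9 the log2 fold change was 1.31, with adjusted p = 0.103. DESeq2 called Cxcr6 in 1 of 10 fits with a library left out, the one without R26-TIR1 replicate 5 (adjusted p = 0.0016).

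Cxcr5 (GRCm39 chr9:44423084-44473174, minus strand), the CXCL13 receptor that marks follicular helper and follicular regulatory T cells, had the lowest log2 fold change of the 9. Normalized counts of 893, 990, 877 and 622 were found in R26-WT replicates 1 to 4, against a lowest of 419, a median of 609 and a highest of 690 in R26-TIR1. Only R26-TIR1 replicate 9, the highest of its group, lay above R26-WT replicate 4, so 5 of 6 R26-TIR1 libraries were under every R26-WT library. The log2 fold change was −0.57 (SE 0.18, 95% interval −0.92 to −0.21), and with a DESeq2 adjusted p of 0.0801 and an edgeR adjusted p of 0.252 it was not called. It passed in 2 of 10 fits with a library left out, without R26-WT replicate 4 (−0.69, adjusted p = 0.0132) and without R26-TIR1 replicate 9 (−0.63, adjusted p = 0.0418). The exons of Bcl9l overlap 3.30% of its exon bases.

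The lymph node receptor Ccr7 (GRCm39 chr11:99035022-99045903, minus strand) was the most precisely measured member. Its values in R26-WT were 52955, 49029, 65051 and 62499 normalized counts, and those in R26-TIR1 ran from 50160 through 57548 to 61834, wholly inside the R26-WT range. The difference was −0.03 on the log2 scale (SE 0.12, DESeq2 adjusted p = 1.00), with a 95% interval from −0.26 to 0.20.

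Ccr8 (GRCm39 chr9:119921180-119923972, plus strand), a receptor of activated tissue Treg cells, was the second most abundant. R26-WT replicates 1 to 4 held 869, 1018, 1055 and 896 normalized counts, and R26-TIR1 651 at the lowest, 843 at the median and 893 at the highest. The highest R26-TIR1 library lay above only 1 R26-WT library, and the groups overlapped. At a log2 fold change of −0.24 (SE 0.13, 95% interval −0.49 to 0.01, DESeq2 adjusted p = 0.801) Ccr8 was not called, under any alternative fitted.

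Ccr6 and Ccr9, receptors used to enter mucosal tissue, were less abundant. Ccr6 (GRCm39 chr17:8454875-8475973, plus strand) had 202, 186, 177 and 173 normalized counts in R26-WT, and 92.4 at the lowest, 132 at the median and 224 at the highest in R26-TIR1. The R26-WT libraries were tightly grouped, with a coefficient of variation of 7.07%, and R26-TIR1 libraries lay on both sides of them, 5 below and replicate 9 above. Its log2 fold change was −0.41 (SE 0.26, 95% interval −0.91 to 0.09, DESeq2 adjusted p = 0.994). An antisense gene overlaps 49.4% of the exon bases of Ccr6, and because counting ignored strand, read pairs in the overlap cannot be assigned by strand. Whether such pairs were counted or left out was not established, so the level of Ccr6 per kilobase is uncertain. Ccr9 (GRCm39 chr9:123507504-123613395, plus strand) had 975, 1384, 885 and 794 in R26-WT, and 626, 756 and 1206 as lowest, median and highest in R26-TIR1. The ranges overlapped over most of their length, and the log2 fold change of −0.30 (SE 0.22, 95% interval −0.74 to 0.13, DESeq2 adjusted p = 1.00) was not called. Slc6a20a, Gm17200 and Gm17021 overlap 21.5% of its exon bases, and none of the 3 reached more than 10 counts in a library. Those counts do not show how read pairs in the overlap were handled.

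Cxcr3 and Cxcr4 varied more among mice than between groups. Cxcr3 (GRCm39 chrX:100775141-100777875, minus strand), the receptor of T-bet-expressing cells, had 522, 496, 426 and 494 normalized counts in R26-WT, a coefficient of variation of 8.39%. In R26-TIR1 it ran from 193 in replicate 6 through a median of 368 to 996 in replicate 9, a coefficient of variation of 59.9%. Here 4 R26-TIR1 libraries were below and 2 above all R26-WT libraries. The means were nearly equal, 484 ± 40.6 (SD, n = 4) and 474 ± 283 (SD, n = 6), and the log2 fold change of −0.03 (SE 0.34, 95% interval −0.71 to 0.64, DESeq2 adjusted p = 1.00) became −0.39 without replicate 9, again not called.

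Cxcr4 (GRCm39 chr1:128515936-128520030, minus strand), the CXCL12 receptor, was the least steady within R26-WT. Its normalized counts there were 499, 1348, 180 and 794, and R26-TIR1 ran from 186 through 640 to 1041. The R26-TIR1 range lay wholly within that of R26-WT, with the lowest values in R26-WT replicate 3 and R26-TIR1 replicate 5. The log2 fold change was −0.16 (SE 0.58, DESeq2 adjusted p = 1.00). Its 95% interval ran from −1.30 to 0.98, so a rise or a fall within these bounds remains compatible with the data. The sign of the log2 fold change turned when R26-WT replicate 2 (0.36) or R26-TIR1 replicate 5 (0.03) was left out.

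**Figure D4:**
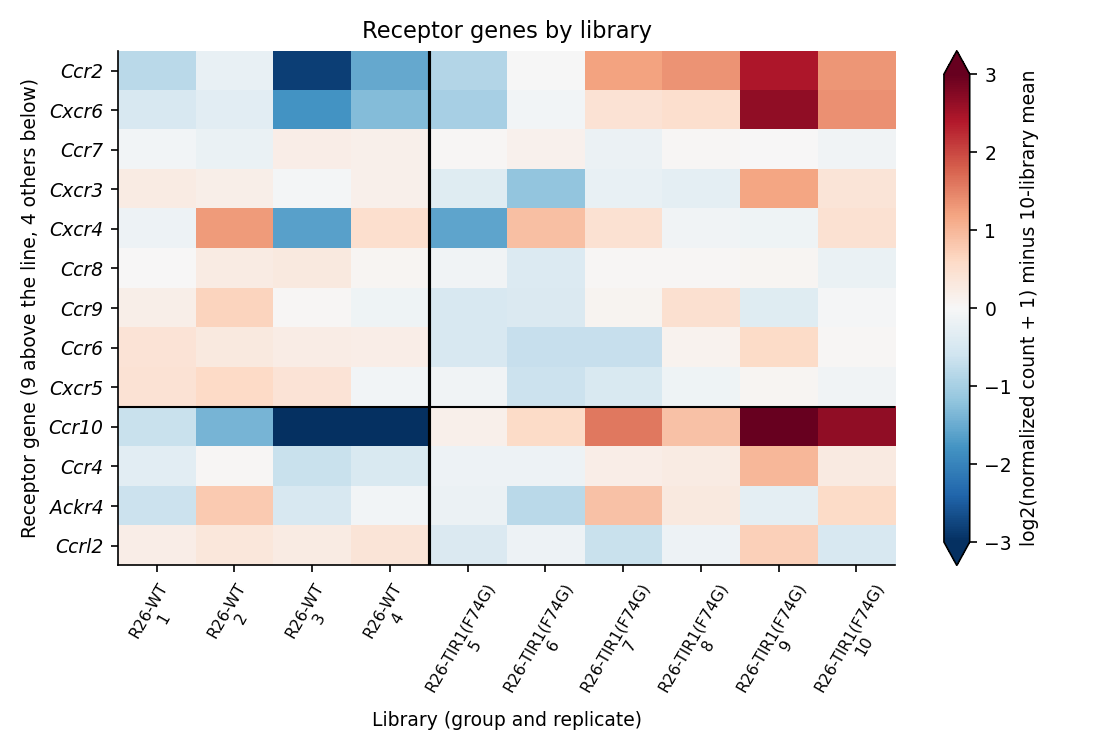
Heat map of log2(normalized count + 1) minus the mean over 10 libraries, for the 9 receptors (above the line) and 4 other tested receptor genes (below it), in R26-WT replicates 1 to 4 and R26-TIR1 replicates 5 to 10; values beyond the ends of the colour bar take its end colours. Replicate 9 has the highest value for Ccr2, Cxcr6, Cxcr3 and Ccr6 among the 9.

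One library held many of the highest values. R26-TIR1 replicate 9 was highest of 10 libraries for 4 of the 9 members (Ccr2, Ccr6, Cxcr3 and Cxcr6) and for 7 of the 14 receptor genes tested. R26-WT replicate 2 was highest for 3 members and R26-WT replicate 3 for 2. The mean level of the 16 genes listed as markers of activated Treg cells was also highest in replicate 9, at 3.62 log2 CPM, against 3.03 in the next R26-TIR1 library and 2.16 to 2.65 in R26-WT. The mean level of the 12 genes of early stress and dissociation was 5.41 log2 CPM there and 5.43 in R26-TIR1 replicate 7. It was 5.93 to 6.22 in the other 4 R26-TIR1 libraries and 5.66 to 6.11 in R26-WT. The summed level of the 12 in replicate 9 was 2866.5 CPM, within the R26-TIR1 range of 2274.8 to 3092.7 CPM. The part of both lists in the receptor values was not tested.

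The genes whose level followed each member most closely were named by Pearson's r of log2(normalized count + 1) over the 10 libraries among 10036 other genes. These values are descriptions, since the libraries share their groups and depth. For Ccr2 the closest were Cxcr6 (r = 0.948) and Ccr4 (r = 0.942), and for Cxcr6 they were Ccr4 (r = 0.959) and Fut7 (r = 0.953), a fucosyltransferase that makes selectin ligands. Cxcr4 was closest to Tsc22d3 (r = 0.972), a glucocorticoid-induced leucine zipper protein, and to Mkks (r = 0.884). Ccr7 was closest to Mtfr1l (r = 0.990) and Mpv17l2 (r = 0.990), and Ccr9 to Xiap (r = 0.972) and Slc43a1 (r = 0.899). Ccr6 was closest to Nkg7 (r = 0.928) and Gem (r = 0.913), and Cxcr3 to B3gnt3 (r = 0.939) and Serpina3g (r = 0.914). Ccr8 was closest to Dctn4 (r = 0.886) and H2-Q5 (r = 0.858), and Cxcr5 to H2-Q6 (r = 0.892) and Iqcb1 (r = 0.879). The H2-Q genes are near-identical copies of each other, so their own counts are uncertain.

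Of 15 further chemokine receptor genes, 5 passed the filter and 1, Ccr10, was called higher by DESeq2, against 1.40% of all tested genes. CCR10 answers CCL27 and CCL28 of skin and mucosal epithelium. Ccr10 had 7.17, 3.94, 0 and 0 normalized counts in R26-WT replicates 1 to 4 and 13.4, 18.5, 38.0, 23.0, 158 and 81.6 in R26-TIR1 replicates 5 to 10. Every R26-TIR1 library was above every R26-WT library, at low counts, while 2.37% of all tested genes had groups that did not overlap in either direction. Ccr10 passed the filter on low counts only through R26-TIR1, since its raw counts were 9, 4, 0 and 0 in R26-WT and 12 to 146 in R26-TIR1, so a gene at its level in R26-WT was tested only because the groups differed. The fitted log2 fold change of 4.32 (SE 1.10, 95% interval 2.16 to 6.49, DESeq2 adjusted p = 0.00838) is set against a group with 2 libraries at 0 and is not a precise size. The edgeR adjusted p was 0.122. DESeq2 called Ccr10 in all 10 fits with a library left out, but those fits select the gene through the same filter and add no support. The size of the change depended on single libraries, with a log2 fold change of 3.66 without R26-TIR1 replicate 9 and 5.47 without R26-WT replicate 1.

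No other was called. Ccr4, the receptor for CCL17 and CCL22, had 259 to 426 normalized counts in R26-WT and 373 to 834 in R26-TIR1, with 4 of 6 R26-TIR1 libraries above every R26-WT library (log2 fold change 0.62, SE 0.24, DESeq2 adjusted p = 0.267). Ccrl2, an atypical receptor that binds chemerin, had 305 to 346 in R26-WT and 167 to 436 in R26-TIR1 (log2 fold change −0.42, SE 0.25, adjusted p = 0.963), and without R26-TIR1 replicate 9 it was called lower (−0.67, adjusted p = 0.00167). Ackr4, a scavenger of CCL19 and CCL21, had 13.4 to 45.4 over all libraries but no difference beyond its spread (0.20, SE 0.43, adjusted p = 1.00). The remaining 10 were not tested because their mean count was under 10. Ccr1l1, Cxcr2, Ackr1 and Ackr3 had 0 counts in all 10 libraries, where a count of 0 allows up to 3 counts per library, and Ccr1, Ccr3, Cxcr1 and Ackr2 reached at most 9, 9, 5 and 3. Cx3cr1 reached 21 and Xcr1 27.

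Ccr2, Cxcr6 and Ccr9 belong to a run of 8 receptor genes that spans 440 kb of chromosome 9. In a window of 25 annotated genes around it 11 were tested and only Ccr2 was called. The point estimates of Ccr2 (2.33) and Cxcr6 (2.00) on the log2 scale were above 0, while that of Ccr9 was −0.30. Neighbours on the other strand were not called. Lztfl1, inside the span of Ccr9, had −0.17 (SE 0.15), and Fyco1, an autophagosome transport protein whose span holds Cxcr6 between its exons, had 0.03 (SE 0.24). Gm2774, which lies between Cxcr6 and Ccr2, had −0.73 (SE 0.45, 95% interval −1.61 to 0.15). Xcr1, Ccr1, Ccr1l1 and Ccr3, which lie between Cxcr6 and Ccr2, had at most 27, 9, 0 and 9 counts. Lztfl1, Fyco1 and Gm2774 are given as neighbours in the run and were chosen after their values were seen.

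**Figure D5:**
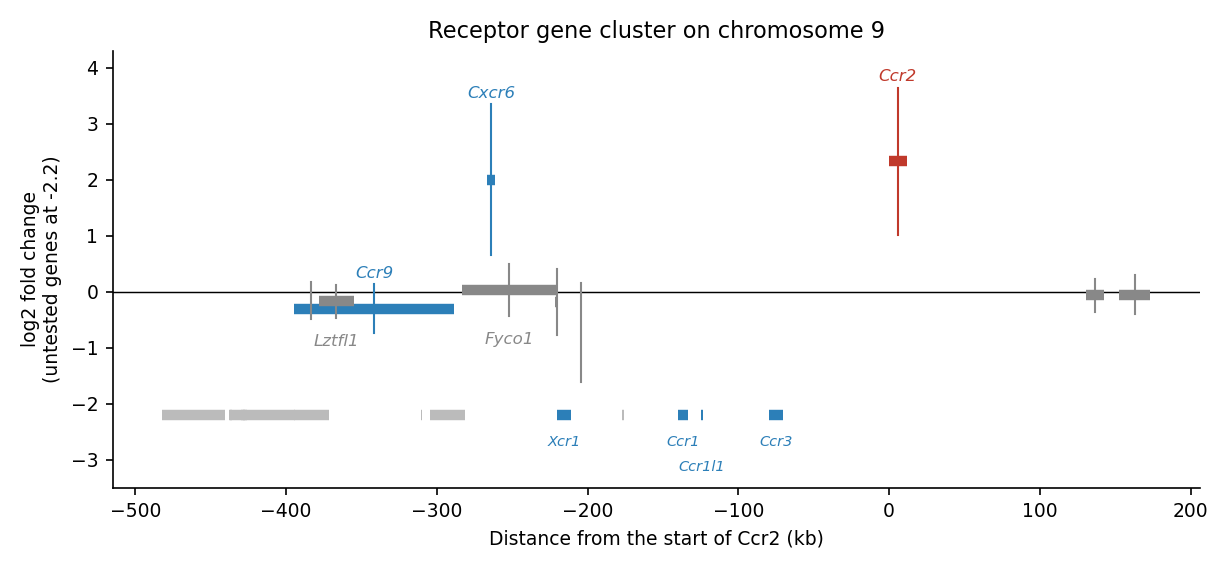
DESeq2 log2 fold change (R26-TIR1 minus R26-WT, 95% intervals as thin lines) against distance in kb from the start of Ccr2, with bars as wide as each gene; the receptor genes shown are blue, Ccr2, the only called gene, is red, other genes are grey, and untested genes are drawn at −2.2. Cxcr6 and Ccr2 stand above 0 while Ccr9, Fyco1 and Lztfl1 lie near it.

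Few ligand genes were detected in these cells. Of 37 ligand genes 6 passed the filter and 0 were called by DESeq2 or by edgeR, against 1.74% and 0.367% of all tested genes, with 1 at an unadjusted p under 0.05, against 6.86%. That one was Ccl5, with 15.9 to 28.5 normalized counts in R26-WT and 4.33 to 13.0 in R26-TIR1 (log2 fold change −1.29, SE 0.43, DESeq2 adjusted p = 0.112). These values did not overlap, as for 2.37% of all tested genes. With means of 21.5 in R26-WT and 8.61 in R26-TIR1, Ccl5 passed the filter on low counts only through R26-WT, so its difference gives no independent support. Cxcl10, a ligand of CXCR3, had 35.8 to 59.0 and 44.6 to 171 (0.71, SE 0.38, adjusted p = 0.797). Ccl25, the ligand of CCR9, was the most abundant by count, with 331 to 515 and 399 to 615 (0.23, SE 0.18, adjusted p = 1.00). Ccl20 of CCR6 and Cxcl16 of CXCR6 had means of 70.3 and 32.1 in R26-WT and 69.7 and 31.9 in R26-TIR1. Ccl27a, a ligand of CCR10, had 65.9 and 60.6.

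Other receptors and adhesion molecules that direct migration showed no call, 0 of 13 tested genes by DESeq2 or edgeR, against 1.74% and 0.367% of all tested genes, with 2 at an unadjusted p under 0.05, against 6.86%. Itgb7, S1pr1 and Selplg were among the highest per length. S1pr1, which lets T cells leave lymph nodes, had 53125 ± 4217 (SD, n = 4) and 49443 ± 5074 (SD, n = 6) normalized counts, a log2 fold change of −0.10 (SE 0.11). Itgb7, the beta chain of the gut homing integrin, had −0.04 (SE 0.10) and Selplg, the selectin ligand PSGL-1, −0.14 (SE 0.15). The smallest unadjusted p belonged to Gpr15, a receptor for homing to colon and skin, which had 133 to 232 in R26-WT and 195 to 1042 in R26-TIR1 (1.14, SE 0.43, DESeq2 adjusted p = 0.231). Gpr183, the receptor for oxysterols at the follicle border, had 0.34 (SE 0.16, adjusted p = 0.611).

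Of the machinery downstream of the receptors 31 genes were tested, 1 fell and none rose, against 0.336% of all tested genes called lower and 1.74% called in either direction. Rhoh, a GTPase without catalytic activity that is needed in T cell receptor signalling and restrains Rac, had 27266 to 30727 normalized counts in R26-WT and 21869 to 24273 in R26-TIR1. Its groups did not overlap, and it fell by 0.31 on the log2 scale (SE 0.07, DESeq2 adjusted p = 0.00349), but edgeR gave an adjusted p of 0.134. The abundant members Coro1a (−0.14, SE 0.15), Rac2 (−0.09, SE 0.14), Cdc42 (−0.08, SE 0.12) and Rap1b (−0.15, SE 0.12) were not called. Rasgrp2, which activates Rap1 for integrin adhesion, had a log2 fold change of 0.22 (SE 0.09, adjusted p = 0.432). The median over the 31 was 0.04.

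Transcription factors linked to receptor genes gave 3 calls of 23 tested, all higher in R26-TIR1, against 1.40% of all tested genes, and edgeR called 2 of the 3, against 0.367%. Eomes, a T-box factor of effector and memory cells, had 68.5 to 135 normalized counts in R26-WT and 209 to 404 in R26-TIR1, and rose by 1.47 (SE 0.23, DESeq2 adjusted p = 4.5e-08, edgeR 0.0172). Id2, an inhibitor of E proteins, had 2634 to 3139 and 4337 to 7962 and rose by 0.92 (SE 0.17, DESeq2 adjusted p = 3.7e-05, edgeR 0.0412). Tcf7, a factor of resting and memory T cells, had 50154 to 64378 and 66938 to 87319 and rose by 0.43 (SE 0.12, DESeq2 adjusted p = 0.0257, edgeR 0.139). None of these 3 overlapped between the groups, as for 2.37% of all tested genes. Klf2, which maintains S1pr1 in resting T cells, had the highest level per kilobase of the list and a log2 fold change of −0.11 (SE 0.14, adjusted p = 1.00). Foxo1 had −0.27 (SE 0.09, adjusted p = 0.145).

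Lists of cell state were read in the same way, beside the 1.40% of all tested genes called higher, 0.336% called lower and 0.367% called by edgeR. Of 11 resting T cell genes 2 rose, Tcf7 and the survival factor Bcl2 (0.37, SE 0.11, DESeq2 adjusted p = 0.0431, edgeR 0.215). Of 16 activated Treg genes the inhibitory receptor Tigit rose (1.73, SE 0.45, DESeq2 adjusted p = 0.0102, edgeR 0.251), the costimulatory receptor Tnfrsf9 fell by 0.49 (SE 0.11, DESeq2 adjusted p = 0.000565, edgeR 0.0526), and the list's median was 0.19. Of 18 proliferation genes 12 rose by DESeq2 and 5 by edgeR, with Rrm2 (1.43, SE 0.21), Cdk1 (1.39, SE 0.21) and Mki67 (1.70, SE 0.40) among the 12, and the list's mean level did not overlap between groups, at 2.66 to 3.58 log2 CPM in R26-WT and 4.07 to 4.88 in R26-TIR1. Of 12 stress and dissociation genes the AP-1 genes Fos, Jun and Junb fell by 0.88 (SE 0.26), 0.71 (SE 0.16) and 0.70 (SE 0.17) in DESeq2, with 0 called by edgeR. Of 9 B cell genes 4 were tested and Cd22 rose (2.68, SE 0.63, DESeq2 adjusted p = 0.00266, edgeR 0.236), while Cd79a and Cd79b were not called. Cd22 had 273 normalized counts in R26-TIR1 replicate 9, the highest, against group means of 77.9 in R26-TIR1 and 12.2 in R26-WT. Plasma cell, myeloid, CD8 and NK cell, erythroid and Treg marker lists gave 0 calls by DESeq2 or edgeR, with 1 of 1, 0 of 3, 0 of 7, 0 of 1 and 3 of 9 tested genes at an unadjusted p under 0.05, against 6.86% of all tested genes. The part of these differences in the receptor values was not tested.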

How the data were processed

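Total RNA of Treg cells from 10 mice was sequenced. The study's bulk protocol amplified 1 to 2 ng with SMART-Seq v4, which has no molecular identifiers and does not mark strand. The study's methods give that protocol under adult female Foxp3-AID/+ mice and describe none separately for 14 days of treatment. Per the file headers, the deposited counts were whole read pairs per gene name from featureCounts 2.1.1, unstranded, with GENCODE M30 on GRCm39. The submitters' processing notes name Bowtie2, featureCounts and DESeq2 with mm39, whereas the study's methods name STAR as aligner, so the aligner is uncertain. Library totals are given in the report, and the allowance for a count of 0 covers counting error only. Library names number 1 mouse each. The study's general gate for Treg cells was CD4+ TCRb+ ZsGreen+, with mCherry+ in addition for R26-TIR1(F74G) mice, and its mice were newborn or young adult. Which age these libraries came from was not given in the sources used here.

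The counts were analysed in R 4.3.3 with DESeq2 1.42.0 (genotype only, mean count of at least 10, 16363 genes, adjusted p threshold 0.05), with 6 genes given no adjusted p. The Wald interval at 95% is on the log2 scale. Alternatives were edgeR 4.0.16 (quasi-likelihood, robust), limma 3.58.1 voom with quality weights, TMM scaling, other count filters, removal of the exon length trend, 1 surrogate variable from sva 3.50.0, and each library left out in turn. All fits were tested on simulated data. No libraries agreed within sampling noise (chi-square per degree of freedom 10.3 to 239 within groups). The R26-WT libraries were not equally alike. Replicates 1 and 2 gave 26.6 and replicates 3 and 4 gave 15.3, against 122 to 238 for the other R26-WT pairs. The reason for this split and its part in the receptor values were not tested. The receptors and gene lists were chosen with earlier results of these data known, and their counts give no independent support. Named genes were the 9 members, all other chemokine receptors, of each other list the DESeq2 calls and genes picked from the 4 smallest unadjusted p and the 4 highest levels per length, and for each member the 2 most alike genes with a mean normalized count of at least 100. Some genes that this rule names are not reported here. Foxp3, the degraded protein's gene, and defining markers of other cells were named beside these. List levels are the mean log2 CPM with a prior count of 1.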

Additional observations from a re-analysis of the deposited data

Results flagged for a closer look

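Of 28 sets of values examined (14 tested receptor genes in both groups), 3 had a sample far from the others of its group by Dixon's test, where chance gives about 1.4. All 3 were the highest value of R26-TIR1 replicate 9. Cxcr6 had 776.5 normalized counts there against 316.0 in the nearest library, a gap of 0.643 of the group's range. Ccr4 had 833.9 against 500.9 (0.722), and Ccrl2 had 435.9 against 237.2 (0.738). Without replicate 9 the log2 fold change of Cxcr6 was 1.31, that of Ccr4 0.43 and that of Ccrl2 −0.67.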

How the results depend on the processing

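The 284 genes called by DESeq2 (229 higher, 55 lower) became 60 with edgeR, 80 with limma voom and 743 with 1 surrogate variable, and 187 to 346 with a library left out, the lowest without R26-WT replicate 4. With the surrogate variable 468 were higher and 275 lower, and with the exon length trend removed 275 and 110. The 1 receptor called of 9 became 0 with edgeR and with limma voom, 2 with the exon length trend removed and with the surrogate variable, where Cxcr5 joined Ccr2, and 0 to 2 with a library left out. Ccr2 was no longer called with edgeR (2.33) or limma voom (2.12), and ranged from 1.91 to 2.77 with a library left out. Cxcr5 passed with the exon length trend removed (−0.59, adjusted p = 0.0275) and with the surrogate variable (−0.58, adjusted p = 0.0076), and ranged from −0.69 to −0.48 with a library left out. Cxcr6 ranged from 1.31 to 2.23. Signs turned for Ccr7 with the surrogate variable (0.026), and with a library left out for Ccr7 (−0.097 to 0.038), Cxcr3 (−0.39 to 0.13), Cxcr4 (−0.48 to 0.36) and Ackr4 (−0.0078 to 0.60), none of them called. The causes were not tested. The other members kept their direction in every fit, and the ratio of the summed level of the 9 receptors was 0.977 and stayed within the spread of the libraries. No paired analysis was possible because no replicate number occurs in both genotypes.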
